A study of Mus musculus with 6 samples.

Results

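Matrix metalloproteinases (Mmp genes), the related ADAMTS proteases (Adamts genes) and the tissue inhibitors of metalloproteinases (Timp genes) were followed in mouse liver with and without Vps15. The members were the protein-coding genes whose GRCm38 symbol, taken from GENCODE release M21, begins with Mmp, Timp or Adamts and goes on with a number. They were 44 of the 56305 genes measured, with 21 Mmp, 4 Timp and 19 Adamts genes. The rule uses names alone and no expression value. Whole livers of 3 WT and 3 Vps15LKO mice, all males of 5 weeks with free access to chow, taken at ZT6, were sequenced with 1 library per liver. Vps15LKO mice are AlbCre+;Vps15 f/f, so Vps15, the regulatory subunit of class 3 PI3K, is removed by a Cre under the albumin promoter, which acts in the hepatocyte lineage. The other cells of the liver keep the gene and contribute to the same RNA. The sources used here do not give the Cre and floxed alleles of the WT mice.

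Metalloproteinases of both protease families use a zinc ion to cut extracellular proteins, and most are made as inactive precursors whose propeptide has to be removed. MMPs cut collagens, basement membrane and many secreted or surface proteins, whereas ADAMTS proteases trim procollagens, cut proteoglycans and, for Adamts13, process von Willebrand factor. TIMPs bind the active site of MMPs and block it, and Timp3 also blocks several ADAMTS enzymes. In injured liver, stellate cells, macrophages, neutrophils and bile duct cells are textbook sources of these genes, and the balance of proteases and inhibitors is part of how scar matrix is laid down and removed.

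For Pik3r4, the gene of Vps15, the WT livers gave 508, 573 and 460 normalized counts and the Vps15LKO livers 341, 362 and 355. Here and below, a normalized count is the number of reads divided by the authors' size factor for that library. The groups did not overlap, and the log2 fold change was −0.54 (standard error, SE, 0.11, adjusted p = 0.0021, limma), but 0.19 when libraries were scaled by their total reads, and the deleted exons were not counted apart. The libraries held 16137093 to 18110223 reads on genes. The size factors were 0.742 to 0.801 for WT and 1.23 to 1.41 for Vps15LKO, so the scaling matters and is named wherever it changes a direction. Hepatocyte markers were abundant in every liver, with a summed level of 2764380 to 3164177 normalized counts over 8 genes in WT livers against 802476 to 1224950 in Vps15LKO livers. The replicates are separate mice, and with 3 against 3 the smallest exact permutation p of a single value is 0.1 (two-sided).

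Of the 44 members, 26 reached 20 normalized counts in 3 or more of the 6 livers and were tested. Among these, 21 were called higher and 3 lower in Vps15LKO liver, and 2 were not called. A call needed a fold of 1.2 or more and an adjusted p below 0.05 (limma on log2(normalized count + 1), adjusted over all 15430 genes tested). Over all genes tested, 33.5% were called higher and 33.0% lower, which makes 66.5% called in all. In 25 of the 26 tested members the 3 WT and the 3 Vps15LKO values did not overlap, against 73.2% of all genes tested. Mmp15 was the member with overlap. Since 7 members passed the filter through the Vps15LKO livers alone and had to differ, the 15 members that reached 20 normalized counts in all 6 livers were also counted apart, and of these 11 were called higher and 3 lower. Among all genes that met this stricter filter, 27.9% were called higher and 36.2% lower. With total reads as the scaling, 22 members were called higher and 1 lower, against 66.7% and 11.1% of all genes.

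**Figure D1:**
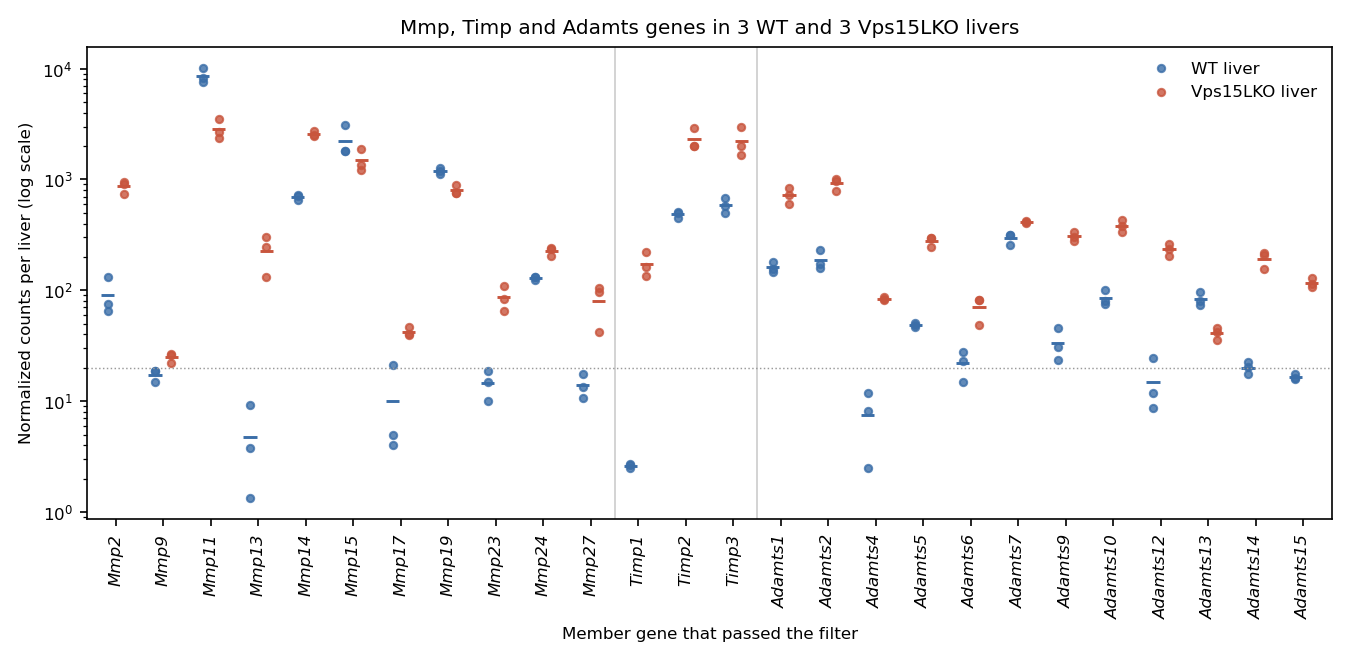
Normalized counts of the 26 tested members in each liver, on a log scale, with WT livers in blue and Vps15LKO livers in red and a short line at each group's mean (n = 3). The dotted line marks 20 normalized counts, and 7 members, Timp1 and Mmp13 among them, have all their WT points below it and all their Vps15LKO points above it.

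A compact block of MMP genes on chromosome 9 holds members with reads in every Vps15LKO library beside members with no reads. Along 427 kb (GRCm38 chromosome 9, 7272514 to 7699585) lie, in this order, Mmp13, Mmp1b, Mmp3, Mmp10, Mmp8, Mmp27, Mmp20 and Mmp7. RefSeq promoter windows, from 250 bases before to 50 after the start of transcription, were matched for 30 of the 44 members by symbol, in 32 windows. Each was searched on both strands for the AP-1 element TGACTCA, whose other strand reads TGAGTCA and which Fos and Jun proteins bind. It was found in 5 member genes, and all 5 lie in this block, whereas 5.20% of all 32851 windows hold it. The 100 bases before the start are shown for these 5 genes and for Mmp27, which lies in the same block without the element, from RefSeq on GRCm38.p6, 5′ to 3′ along the gene's own strand, with the AP-1 element in capitals.
Mmp13 (chr9:7272414-7272513, plus strand): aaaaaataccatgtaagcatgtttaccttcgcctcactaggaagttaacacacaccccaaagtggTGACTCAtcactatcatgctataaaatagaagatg
Mmp1b (chr9:7388027-7388126, minus strand): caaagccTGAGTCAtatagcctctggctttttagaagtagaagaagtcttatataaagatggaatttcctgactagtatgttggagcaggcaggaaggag
Mmp3 (chr9:7445722-7445821, plus strand): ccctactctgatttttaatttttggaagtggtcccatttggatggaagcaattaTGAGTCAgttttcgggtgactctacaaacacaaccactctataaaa
Mmp10 (chr9:7502242-7502341, plus strand): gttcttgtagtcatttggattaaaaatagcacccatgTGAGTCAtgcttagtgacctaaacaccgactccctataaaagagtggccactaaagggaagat
Mmp7 (chr9:7691990-7692089, plus strand): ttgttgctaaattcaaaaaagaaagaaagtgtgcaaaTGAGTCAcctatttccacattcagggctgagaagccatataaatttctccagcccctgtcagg
Mmp27 (chr9:7571296-7571395, plus strand): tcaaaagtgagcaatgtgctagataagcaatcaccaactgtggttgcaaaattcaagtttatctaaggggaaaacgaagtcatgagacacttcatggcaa

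The element begins 35 bases before the start in Mmp13, 46 in Mmp3, 63 in Mmp10 and Mmp7 and 93 in Mmp1b. A TATAAA match on either strand was found in 9 member genes, Mmp13, Mmp1b, Mmp3, Mmp10, Mmp8, Mmp20, Mmp7, Mmp21 and Adamts1, and in 13.6% of all windows. The E-box CACGTG, the element bound by Bmal1 and Clock, was in the windows of Adamts17 and of a second start of Mmp7, and in 7.15% of all windows. None of the AP-1 elements overlapped a match of either other motif. These matches are letters in a window and not measured binding sites.

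Of the 8 genes of the block, Mmp13 and Mmp27 were tested. Mmp13, the main interstitial collagenase of the mouse, had 7, 3 and 1 reads in the WT libraries and 322, 370 and 186 in the Vps15LKO libraries. These correspond to 9.28, 3.75 and 1.35 against 246, 299.8 and 132 normalized counts, a log2 fold change of 5.46 (SE 0.53, adjusted p = 3.7e-05, limma). The fold is steep because WT livers were nearly empty of Mmp13 reads, and it was 3.96 on the log2 scale with a pseudocount of 10. Mmp27, without the element, had 10.6, 17.5 and 13.5 normalized counts in WT livers against 104, 95.6 and 42.4 in Vps15LKO livers and was called higher (log2 fold change 2.38, adjusted p = 0.00047, limma). Mmp27 and Mmp13 were both lowest in replicate 3 among the Vps15LKO livers. Both genes passed the filter through the Vps15LKO livers alone, so their ranges could not meet those of WT.

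The other genes of the block did not pass the filter and were not tested. Mmp8, the neutrophil collagenase, had 2, 2 and 0 reads in WT libraries against 21, 26 and 42 in Vps15LKO libraries, a ratio of normalized counts of 12.9 (95% exact counting interval 4.87 to 48.4, which covers counting error only). Mmp7, matrilysin, an epithelial MMP of ducts and glands, had 0, 0 and 2 reads against 22, 7 and 69, a ratio of 28.4 (7.66 to 238). All Vps15LKO libraries lay above all WT libraries for both genes, and the Vps15LKO values of Mmp7 were far apart. Mmp3, stromelysin 1, reached 1 read in WT libraries against 6 in Vps15LKO libraries. Mmp1b, Mmp10 and Mmp20 had no read in any library, although Mmp1b and Mmp10 carry the AP-1 element, so transcripts of these genes were not detectable at this depth. Mmp20 is the enamel protease of teeth.

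**Figure D2:**
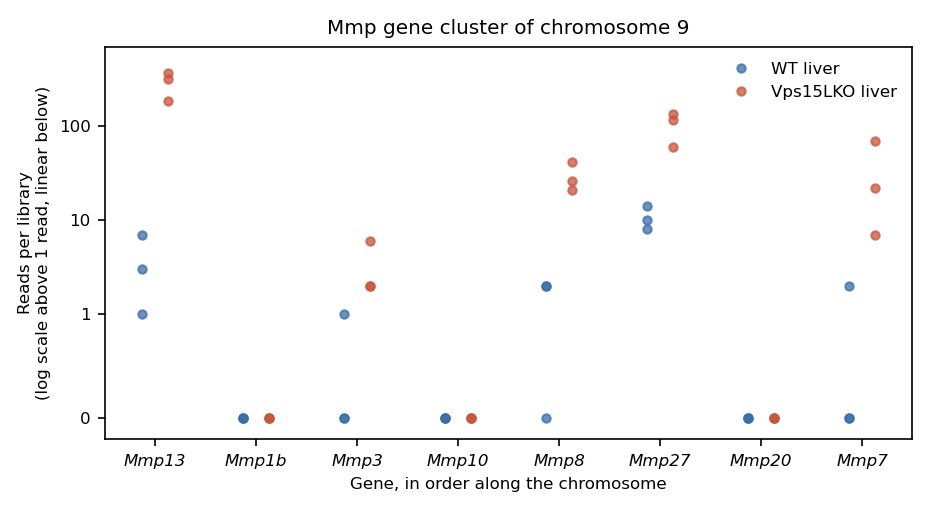
Reads per library for the 8 MMP genes of the chromosome 9 block in the order in which they lie, with WT libraries in blue and Vps15LKO libraries in red, on an axis that is logarithmic above 1 read and linear below. Mmp13 goes from at most 7 reads in WT to at least 186 in Vps15LKO libraries, the Vps15LKO points of Mmp8, Mmp27 and Mmp7 also lie above their WT points, and Mmp1b, Mmp10 and Mmp20 stay at 0 in all 6.

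Of the 4 Timp genes 3 were tested, and all 3 were called higher (33.5% of all genes tested), Timp1 after passing the filter through the Vps15LKO livers alone. Timp1, on chromosome X from 20870166 to 20874735, is the TIMP most closely tied to inflammation and scarring. It had 2 reads in each WT library and 211, 166 and 314 in the Vps15LKO libraries, or 2.50 to 2.70 against 161, 135 and 222 normalized counts. The ratio was 66.8 (95% exact counting interval 30.5 to 183), and the fitted log2 fold change of 5.55 (SE 0.27, adjusted p = 1.2e-06, limma) ran from 3.83 with a pseudocount of 10 to 5.96 with 0.1. With a pseudocount of 1 and the authors' size factors it was the largest fitted change among the 26 tested members. With quantile normalization Mmp13 was larger, at 4.41 against 4.35 for Timp1.

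Timp2, on chromosome 11 from 118301069 to 118355740, which besides its inhibitory role takes part in the activation of Mmp2 by Mmp14, was already abundant in WT liver. Its normalized counts were 503, 509.6 and 453 in WT livers against 1998, 1991 and 2927 in Vps15LKO livers, with a log2 fold change of 2.21 (SE 0.15, adjusted p = 7e-06, limma). Timp3, on chromosome 10 from 86300372 to 86349506, is the TIMP that binds to the matrix. It had 581, 682 and 499 normalized counts in WT livers against 2008, 1648 and 2941 in Vps15LKO livers (log2 fold change 1.87, SE 0.21, adjusted p = 7.4e-05, limma). Replicate 3 was the highest Vps15LKO liver for Timp1, Timp2 and Timp3 alike, and replicate 2 the lowest. Timp4, best known from the heart, had no read in the WT libraries and 8, 6 and 14 in the Vps15LKO libraries. It was not tested and was at least 1.77-fold higher against a floor of 3 reads per WT library.

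Of the gelatinases, which cut denatured and basement membrane collagen, only Mmp2 was called. Mmp2 had 75.6, 65.0 and 131 normalized counts in WT livers against 735, 902 and 956 in Vps15LKO livers, a log2 fold change of 3.30 (SE 0.24, adjusted p = 9.2e-06, limma). Mmp9, the gelatinase of neutrophils and macrophages, had 18.6, 18.7 and 14.8 against 22.1, 25.9 and 26.9. Mmp9 passed the filter through the Vps15LKO livers alone, so its values could not overlap. Its log2 fold change of 0.50 (SE 0.25) did not pass (adjusted p = 0.11, limma). It was −0.61 with quantile normalization and 1.19 with total-read scaling. The difference between the changes of Mmp2 and Mmp9 was not tested.

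Membrane-type MMPs sit on the cell surface, and 4 of their 6 genes were tested, with 3 called higher (33.5% of all genes tested). Mmp14, which activates proMmp2 and cuts fibrillar collagen at the surface, had 704, 721 and 652 normalized counts in WT livers against 2443, 2507 and 2736 in Vps15LKO livers. Its log2 fold change was 1.89 (SE 0.09, adjusted p = 1.2e-06, limma), with the smallest SE among the tested members, and each liver of either group lay close to its group mean. Mmp17, one of the MMPs held by a lipid anchor, was low, with 21.2, 4.996 and 4.04 against 39.7, 46.2 and 40.3 (log2 fold change 2.29, SE 0.53, but 2.97 without WT replicate 1). Mmp24, best known in neurons, had 133, 125 and 131 against 239.8, 233 and 202 (log2 fold change 0.79).

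Mmp15 is the membrane-type MMP with the highest level in WT liver per length of exon. Its values were 1794, 1801 and 3111 normalized counts in WT livers against 1356, 1868 and 1224 in Vps15LKO livers, so that Vps15LKO replicate 2 lay above 2 of the WT livers. The log2 fold change was −0.57 (SE 0.23, adjusted p = 0.060, limma). With each liver left out in turn it ran from −0.74 (adjusted p = 0.022, limma) without Vps15LKO replicate 2 to −0.30 (adjusted p = 0.16, limma) without WT replicate 3, and under total-read scaling 0.16. Mmp25, a neutrophil MMP, and Mmp16 were not tested. Mmp25 had 1 to 3 reads in WT libraries against 16 to 19 in Vps15LKO libraries, a ratio of 5.13 (2.21 to 14.6), and Mmp16 had at most 3 reads in any library.

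Among the remaining MMPs, Mmp23 had 18.6, 9.99 and 14.8 normalized counts in WT livers against 65.7, 83.5 and 110.3 in Vps15LKO livers (log2 fold change 2.51, adjusted p = 0.0001, limma). Mmp19, a broadly expressed MMP, was called lower, with 1256, 1193 and 1122 against 751, 884 and 751, a log2 fold change of −0.58 (SE 0.10, adjusted p = 0.00086, limma) that turned to 0.14 under total-read scaling. Mmp28, an MMP of epithelia, had 4 to 10 reads in WT libraries against 21 to 24 in Vps15LKO libraries and was not tested. Mmp21, a gene of left-right patterning in the embryo, had 1 read in 1 Vps15LKO library.

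The member with the most counts, Mmp11 (stromelysin 3), cannot be read as it stands. Its normalized counts were 10012, 8180.3 and 7546 in WT livers against 2703, 3482 and 2350.3 in Vps15LKO livers, a log2 fold change of −1.60 (SE 0.17, adjusted p = 5.9e-05, limma). Mmp11 shares 155 bases of exon with Chchd10, a gene of a mitochondrial protein on the opposite strand, which had 14978 ± 2041 normalized counts in WT livers against 4853 ± 958 in Vps15LKO livers (SD, n = 3). The ratio of Mmp11 to Chchd10 was 0.560 to 0.591 in all 6 livers, and the log2 fold change of Chchd10 was −1.64. Reads of the 2 genes cannot be told apart in this table. The library kit marks strand, but of 17 genes lying wholly within exons of an abundant opposite-strand gene, 16 had at least the host's level per kb of exon, with a median ratio of 1.87, so reads in shared exons entered the counts of both genes. Mmp11 is therefore left out of the sums below.

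Shared exons touch 6 other tested members. Timp3 shares 1733 bases with Syn3, within which it lies on the opposite strand, and the ratio of Timp3 to Syn3 was 1.69 to 1.98 in all livers. Mmp19 shares 789 bases with Tmem198b (ratio 2.15 to 2.87) and 212 with Gm47093, Mmp24 shares 637 with BC029722 (0.344 to 0.431) and Adamts7 shares 122 with Tbc1d2b (0.244 to 0.313). Adamts9 shares exons with A730049H05Rik and Gm15737, which had at most 28.3 and 19.1 normalized counts in any liver. Over the 19 tested members that share no exon base with another gene, 16 were called higher, 1 lower (Adamts13) and 2 were not called. Of all genes tested, 33.5% were higher and 33.0% lower. Among the 19, 6 passed the filter through the Vps15LKO livers alone. For the 9 with 20 normalized counts in every liver, 7 were higher and 1 lower, beside 27.9% and 36.2% of all such genes.

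**Figure D3:**
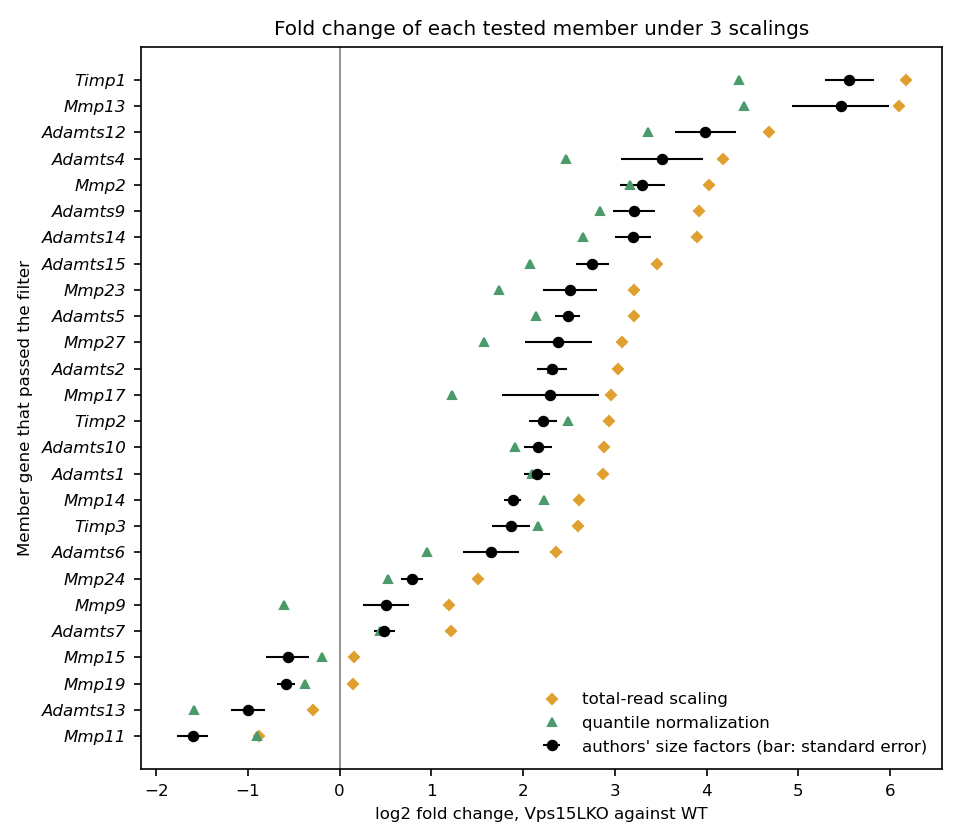
Log2 fold change of each tested member, Vps15LKO against WT livers, with the authors' size factors (black circles, bars are standard errors, n = 3 per group), with total-read scaling (orange diamonds) and with quantile normalization (green triangles). Most members lie right of 0 under each scaling, while Mmp9, Mmp15 and Mmp19 have points on both sides.

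All 12 tested ADAMTS genes were called, 11 higher and 1 lower, where 33.5% of all genes tested were higher and 33.0% lower. Of the 12, 7 reached 20 normalized counts in every liver, and of these 6 were higher and 1 lower. Of 7 genes of proteoglycan-cleaving enzymes 5 were tested and called higher, of which Adamts4 and Adamts15 passed the filter through the Vps15LKO livers alone. Adamts1 had 147, 181 and 156 normalized counts in WT livers against 729, 605 and 839 in Vps15LKO livers (log2 fold change 2.15, SE 0.14, adjusted p = 5.8e-06, limma). Adamts5, the main aggrecanase of mouse cartilage, had 46.4, 48.7 and 51.2 against 247, 297 and 294 (log2 fold change 2.49). These 2 genes are neighbours on chromosome 16, between 85793827 and 85901828, and both groups were tight for each of them.

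Adamts9, Adamts4 and Adamts15 had low counts in WT liver. Adamts9, which is needed for versican turnover, had 30.5, 23.7 and 45.8 normalized counts in WT livers against 279, 304 and 337 in Vps15LKO livers (log2 fold change 3.21). Adamts4, the other aggrecanase, had 9, 2 and 6 reads in WT libraries against 108, 107 and 118 in Vps15LKO libraries (log2 fold change 3.52, SE 0.45). Adamts15 had 15.9, 17.5 and 16.2 normalized counts against 115, 108 and 130.1 (log2 fold change 2.75). For Adamts9 no Vps15LKO liver lay within the WT range, whereas for Adamts4 and Adamts15 the filter left no room for overlap. The Vps15LKO values of all 3 genes differed little from mouse to mouse. Adamts8 had at most 7 reads and Adamts20 at most 1 in any library.

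Procollagen N-proteinases cut the amino-terminal propeptide from fibrillar procollagens, a step that precedes fibril assembly. Adamts2, the main enzyme for type I procollagen, had 158, 171 and 229 normalized counts in WT livers against 784, 1014 and 973 in Vps15LKO livers (log2 fold change 2.32, SE 0.16, adjusted p = 7.2e-06, limma). Adamts14 went from 22.5, 17.5 and 20.2 to 217, 207 and 156 (log2 fold change 3.19, SE 0.19, adjusted p = 3.8e-06, limma). The third enzyme, Adamts3, had 2 to 3 reads in WT libraries against 6 to 15 in Vps15LKO libraries and was not tested.

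Adamts7 and Adamts12, a structural pair known for cutting cartilage oligomeric matrix protein, rose by unequal amounts, a difference that was not tested. Adamts7 had 314, 312 and 255 normalized counts in WT livers against 418, 411 and 402 in Vps15LKO livers (log2 fold change 0.49, adjusted p = 0.0043, limma). Adamts12 had 11.9, 8.74 and 24.3 against 236, 205 and 259.6, with a log2 fold change of 3.99 (SE 0.33, adjusted p = 1.6e-05, limma), the largest among the Adamts genes. Their shared substrate gene Comp was near 0 in both groups, at 0.891 ± 0.772 and 3.09 ± 1.46 normalized counts (SD, n = 3).

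Adamts10, which acts on fibrillin microfibrils, and Adamts6, its closest relative, were higher as well. Adamts10 went from 80.9, 74.9 and 99.8 to 338, 379 and 434 normalized counts (log2 fold change 2.16), and Adamts6 from 27.8, 15.0 and 22.9 to 82.5, 48.6 and 82.0 (log2 fold change 1.65). Adamts16 had 0 to 2 reads in WT libraries against 9 to 28 in Vps15LKO libraries, Adamts17 had at most 4 in any library, and Adamts18 and Adamts19 had none.

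Adamts13, the von Willebrand factor protease of plasma, which the liver makes mainly in stellate cells, was the 1 Adamts gene called lower. It had 79.6, 96.2 and 74.1 normalized counts in WT livers against 45.8, 42.1 and 35.4 in Vps15LKO livers, with no overlap and a log2 fold change of −1.001 (SE 0.19, adjusted p = 0.0015, limma). Under total-read scaling the change was −0.29 and did not pass (adjusted p = 0.21, limma). Vwf, the gene of its substrate, was called higher, from 247 ± 44.9 to 419 ± 13.7 normalized counts (SD, n = 3). Of 16 markers of stellate cells and fibroblasts, 15 were called higher and none lower, beside 33.5% and 33.0% of all genes tested.

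Levels were compared between genes only per kb of exon. In WT liver, leaving Mmp11 aside, Mmp15 took 43.0% ± 8.46 and Mmp19 36.1% ± 6.14 of the summed Mmp level (SD, n = 3). In Vps15LKO liver these shares were 18.9% ± 3.12 and 15.6% ± 0.551, and Mmp14 took the largest share at 29.8% ± 2.71, after 12.5% ± 2.14 in WT. Mmp2 went from 2.77% ± 0.689 to 17.7% ± 1.98, and Mmp13 from 0.200% ± 0.176 to 5.81% ± 2.05. For each of these 5 genes the 3 shares of the groups did not overlap. Shares within a library do not depend on the scaling between libraries, and no share of a gene can rise without others falling.

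Among the Adamts genes, Adamts7 held 32.6% ± 3.75 of the summed level per kb in WT and 13.02% ± 0.913 in Vps15LKO liver, Adamts13 went from 11.8% ± 1.41 to 1.67% ± 0.293, and Adamts1 was the largest in Vps15LKO liver, at 27.1% ± 3.26 after 21.2% ± 1.84 in WT. Within the inhibitors, Timp2 was the largest in both groups, with 62.7% ± 2.21 and 56.2% ± 2.49. Timp1 went from 1.48% ± 0.194 to 18.4% ± 0.884, and Timp3 from 35.8% ± 2.39 to 25.3% ± 1.71. The order Timp2, Timp3, Timp1 was the same in every liver.

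Summed over all Timp genes, the level per kb was 203, 217 and 181 normalized counts in WT livers against 942, 866 and 1364 in Vps15LKO livers. The Mmp genes other than Mmp11 summed to 885, 863 and 1093 against 1352, 1562 and 1422, and the Adamts genes to 141, 147 and 143 against 487, 488 and 535. With Mmp11 included the direction of the Mmp sum was the opposite, at 4489, 3808 and 3809.6 in WT livers against 2325, 2816 and 2268 in Vps15LKO livers. The Timp sum divided by the Mmp sum without Mmp11, a ratio free of the scaling, was 0.230, 0.252 and 0.165 in WT livers against 0.697, 0.554 and 0.959 in Vps15LKO livers. The lowest Vps15LKO ratio thus lay above the highest WT ratio, and it remained below 1 in all 6 livers. With Mmp11 included the ratio was 0.0453, 0.0571 and 0.0474 against 0.405, 0.307 and 0.601. These are ratios of transcripts and say nothing of active protein.

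**Figure D4:**
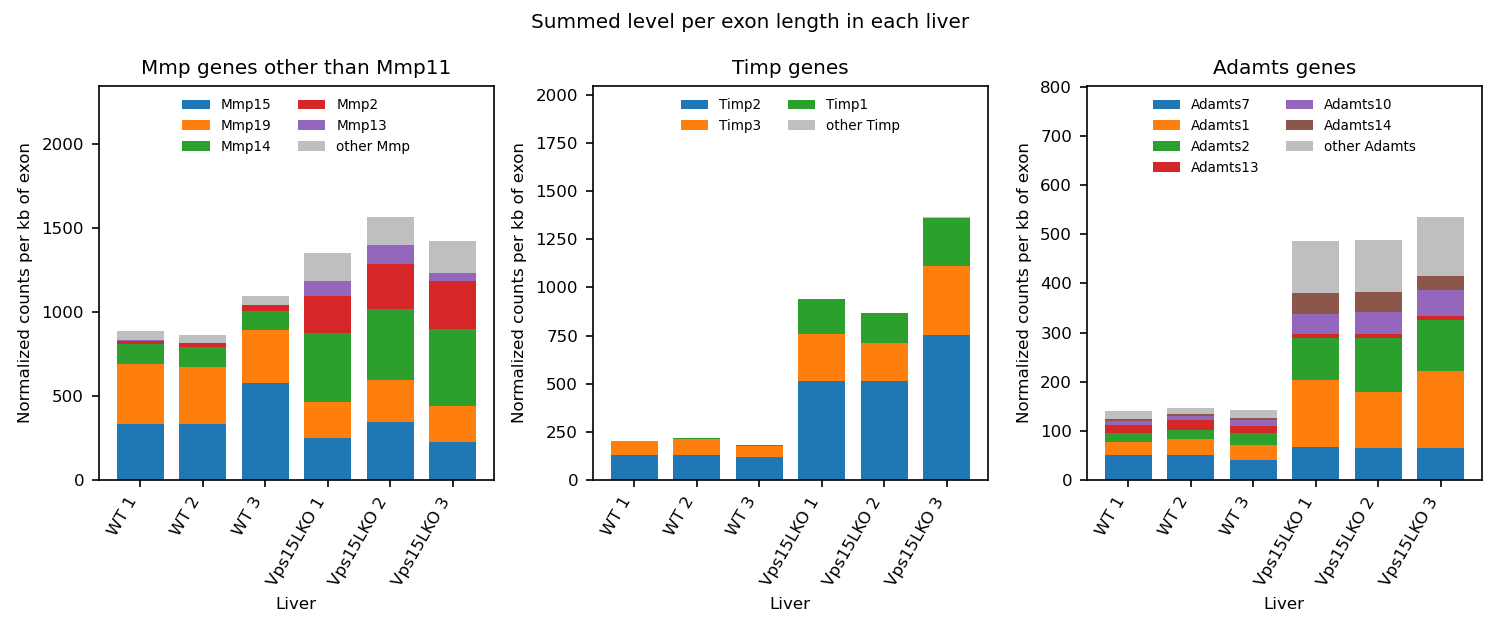
Summed normalized counts per kb of exon in each liver, stacked by gene, for the Mmp genes other than Mmp11, the Timp genes and the Adamts genes. The Timp stack rises from at most 217 in WT to at least 866 in Vps15LKO livers, Mmp15 or Mmp19 is the largest band of the Mmp stack in each WT liver and Mmp14 in each Vps15LKO liver, and the Adamts13 band is thinner in each Vps15LKO liver than in any WT liver.

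Of 11 genes of convertases and the plasminogen system, 4 were called higher, 6 lower and 1 was not called. Over all genes tested, 33.5% were higher and 33.0% lower. The median log2 fold change of the list was −0.64, against −0.02 over all genes tested. The 4 that rose are from the plasminogen activator side or act at the cell surface and were low in WT liver, none of them with 20 normalized counts in every liver: Plat, tissue plasminogen activator, went from 10.4 ± 6.74 to 591 ± 181 normalized counts, Plaur, the urokinase receptor, from 12.2 ± 4.12 to 426 ± 65.9, St14, matriptase, from 12.2 ± 0.283 to 336 ± 71.2, and Plau, urokinase, from 25.4 ± 7.29 to 186 ± 38.7 (SD, n = 3). Plg, plasminogen itself, a hepatocyte product, was lower at 16764 ± 3944 after 57244 ± 2895. Furin, the convertase that removes the propeptide of membrane-type MMPs and of ADAMTS enzymes, was lower as well (log2 fold change −1.10). Under total-read scaling the median was 0.08, with 5 called higher and 3 lower, beside 66.7% and 11.1% of all genes. The direction of this list as a whole thus depends on the scaling.

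Of 11 inhibitors and clearance receptors outside the Timp family, 5 were called higher, 4 lower and 2 were not called, where 33.5% of all genes tested were higher and 33.0% lower (list median −0.27, but 0.45 under total-read scaling and 0.84 with quantile normalization). Thbs1, thrombospondin 1, rose from 25.9 ± 10.2 to 540.2 ± 153 normalized counts (SD, n = 3). The plasma macroglobulins of mouse hepatocytes, which trap proteases, were lower, with Pzp at 50173 ± 14569 after 144945 ± 4009 and Mug1 at 13259 ± 4863 after 95410.1 ± 8379. Reck, a membrane-anchored MMP inhibitor, was not called, at 109 ± 29.2 and 88.1 ± 3.12 with overlapping values.

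Transcription factors that act on MMP promoters, of the AP-1, ETS, NF-kB and Runx families, were called higher in 17 of 20 tested genes and lower in none, with a median log2 fold change of 1.65, where 33.5% of all genes tested were higher and 33.0% lower. The AP-1 members differed in level. Fosl1 rose from 2.23 ± 2.05 to 117 ± 6.45 normalized counts and Atf3, a partner of Jun, from 27.1 ± 11.0 to 436 ± 2.90, whereas Jun went from 486 ± 218 to 1549 ± 149.9 and Junb was not called, with overlapping values (SD, n = 3). Total-read scaling called all 20 higher, beside 66.7% of all genes, and with quantile normalization 19 were called higher and 1 lower.

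Beside 33.5% higher and 33.0% lower over all genes tested, substrates rose in 18 of 19 tested genes (median log2 fold change 2.99), among them Col1a1, Col3a1 and Spp1, and Fn1 was not called. Genes of the ADAMTS-like proteins, which have the ancillary domains but no protease, were higher in 6 of 7, led by Adamtsl2 in level, and Papln was lower. The ADAM family, the membrane-bound relatives of ADAMTS, had 11 of 33 genes tested, of which 7 were higher, 2 lower and 2 not called, with a median log2 fold change of 1.05. Of 44 collagen genes, 25 were tested, 21 were higher and 4 lower (median 2.42). Under total-read scaling no ADAMTS-like or ADAM gene and 1 collagen gene were lower.

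**Figure D5:**
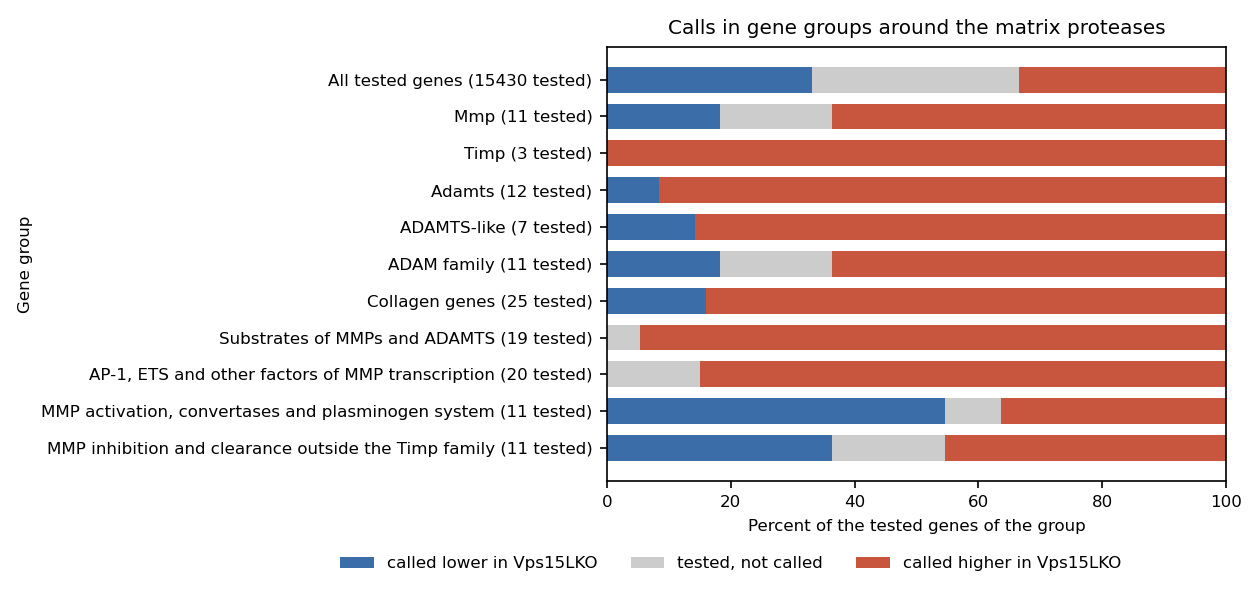
Percent of the tested genes of each group that were called lower (blue), not called (grey) or called higher (red) in Vps15LKO liver, with the number tested in each label. All tested genes divide nearly evenly, the 3 Timp genes are all higher, and the activation and plasminogen list is the 1 group plotted with more genes called lower than higher.

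Markers of other liver cells moved with the genotype. Beside the counts that follow, 33.5% of all genes tested were called higher and 33.0% lower. Stellate cell and fibroblast markers summed to 3951 to 5013 normalized counts in WT livers against 25165 to 31051 in Vps15LKO livers, with 15 of 16 called higher. For macrophages the sums were 7352 to 8809.9 and 29135 to 32128, with 12 of 14 called higher. Neutrophil markers summed to 79.9 to 95.7 and 628 to 796, with all 7 tested of 12 called higher, of which 1 had 20 normalized counts in every liver, and Mpo, Ngp and Ly6g were at 0 in every WT liver. Cholangiocyte markers summed to 1315 to 1465 and 12456 to 23956, with all 8 tested of 9 called higher, of which 5 had 20 normalized counts in every liver.

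Endothelial markers differed less, from 10891 to 11974 in WT livers against 9209 to 11207 in Vps15LKO livers. Of these 11, 3 were called higher and 6 lower, beside 33.5% and 33.0% of all genes tested. Under total-read scaling 7 were higher and none lower, beside 66.7% and 11.1% of all genes. Of the hepatocyte markers 7 of 8 were called lower and Alb was not called. Within the Vps15LKO livers the cholangiocyte sum was 15875, 12456 and 23956 in replicates 1 to 3. Timp1 (161, 135 and 222 normalized counts) and Mmp7 (22, 7 and 69 reads) had the same order of livers. That order was not particular to them, as Timp2, Timp3 and the size factors (1.31, 1.23 and 1.41) also had it. Mmp13 (246, 299.8 and 132 normalized counts) and Mmp27 had another order. With whole liver RNA, more or fewer cells of a type and more or less RNA per cell cannot be told apart, and the part of these markers in the changes of the members was not tested.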

How the data were processed

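Per the file headers and the methods, the authors cleaned reads with SOAPnuke, aligned to GRCm38 using HISAT2, summarised per gene using featureCounts and divided each library by a DESeq2 size factor. The deposited values are this signal, normalized counts for 56305 genes. Tool versions and the strand setting are not given in the sources used here. All values above 0 (100%) were whole multiples of 1 read within 0.01, so reads were recovered, 16137093 to 18110223 per library. GENCODE M21 gave symbols, coordinates and exon lengths for 55227 genes.

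Genes that reached 20 normalized counts in 3 or more livers were compared with limma 3.58.1 (trend) in R 4.3.3 on log2(normalized count + 1), a scale that understates changes of low genes, with Benjamini-Hochberg adjustment over all 15430. The test was first run on simulated data. Counting intervals are exact (95%). The replicate numbers come from the labels and name different mice. Replicates of a group differed by a chi-square per gene of 15.0 to 40.9, so none was a copy of another. Every member is accounted for, and full statistics go to the Timp genes and to members with the largest means or fold changes. From a related list at most 6 genes are named, by mean or fold change. Vwf, Comp, Fosl1, Reck and Papln are exceptions, named once their values had been seen. Members and lists were chosen with earlier results of these data known. One gene of the name pattern is not reported here, and Mmp1a, annotated as a polymorphic pseudogene, is no member. Symbols were matched to RefSeq promoters on GRCm38.p6 as given in the text. Alternatives were pseudocounts of 0.1 and 10, other filters, fold thresholds and scalings, no trend, edgeR 4.0.16, DESeq2 1.42.0 and voom on recovered reads, each liver left out, and replicate number as a block. On recovered reads edgeR called 10205 genes, 24 of them members. Leaving out members with shared exons was added after seeing the data. Python 3.11.15, pandas 2.3.3 and matplotlib 3.10.9 prepared tables and plots.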

Additional observations from a re-analysis of the deposited data

How the results depend on the processing

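Of the values of single members under the alternatives, 523 kept their direction and their side of the threshold, 5 newly passed it, 4 no longer passed it and 3 turned. With a minimum of 20 normalized counts in all 6 livers, which drops genes near 0 in WT, 14 members were called and 11 were higher. This filter left 0 higher genes in the activation list, 3 in the list of other inhibitors, 1 neutrophil marker, 5 cholangiocyte markers and 4 ADAM genes. With no filter, 11 neutrophil markers were higher. A fold threshold of 2 left 5185 of 10262 genes called over the table, dropped Mmp19, Mmp24 and Adamts7, and left 0 endothelial markers higher. Total-read scaling moved the median of all tested genes by 0.72. Under it 1 member was lower, the log2 fold changes turned to 0.14 for Mmp19, 0.16 for Mmp15 and 0.19 for Pik3r4, Adamts13 lost its call, Mmp9 gained one, and 7 endothelial markers were higher. With quantile normalization Mmp9 was −0.61. Mmp9 passed without a trend, and Mmp15 passed with upper-quartile scaling, with DESeq2 (log2 fold change −0.59) and without Vps15LKO replicate 2. Without the members that share exon bases with another gene, 17 members were called, 16 higher and 1 lower, beside 33.5% and 33.0% of all genes tested. With each liver left out in turn, 24 to 25 members were called. The causes were not tested beyond how each alternative is built.

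Same-numbered livers had correlations of deviations of −0.010, −0.011 and 0.049, and unlike-numbered livers of −0.063 to 0.088. With 3 livers per group this cannot exclude that a number stands for a shared litter or batch. With replicate number as a replicate block, 24 members were called, 21 higher and 3 lower, and 10048 genes in all. Depth limits the 8 members with at most 3 reads in every library, whose differences were not detectable.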
